A study of Drosophila melanogaster with 3 samples.

Results

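The CCT chaperonin genes of the fruit fly, CCT1 to CCT8, were examined for binding of CG12391-eGFP in whole embryos. The members were chosen by name as the 8 subunit genes of the ring, and all 8 were found among 13945 protein-coding genes on the chromosome arms. Chromatin immunoprecipitation with sequencing (ChIP-seq) had been done, per the sample descriptions, with an anti-GFP antibody (the antibody field of the labels names CG12391) on Drosophila melanogaster embryos of both sexes aged 0 to 24 h. The embryos came from 1 transgenic line that stably expresses CG12391 fused at its C terminus to GFP, and what drives the fusion is not stated in the sources used here. The 3 samples were labelled as biological replicates of this 1 group. No other genotype, age or treatment was part of the samples, so the comparisons below are between genes and between replicates. Whole embryos mix many tissues, so a weak peak from binding in few cells and one from weak binding in many cells cannot be told apart.

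CCT, also called TRiC, is a large cytosolic chaperonin built of stacked rings in which each of the 8 related subunits takes a fixed place. It encloses unfolded proteins and uses ATP to help them fold, and actin and tubulin are its best-known clients. The prefoldin complex hands such clients to CCT. Because the ring needs every subunit, the question put to the data was whether CG12391-eGFP peaks lay alike at all 8 genes.

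Peaks lay near all 8 genes in the list called on the pooled replicates, but near only 6 in the strictest list. The strictest list was filtered by irreproducible discovery rate (IDR), which is meant to keep peaks that replicates rank alike. In it, 6 of 8 genes had a summit no more than 500 bp from their transcription start site (TSS). These were CCT1, CCT3, CCT5, CCT6, CCT7 and CCT8, against 34.4% of all protein-coding genes by the same rule. CCT2 and CCT4 had none. Every IDR-thresholded summit at the CCT genes had the same signal and rank in the pooled list. The lowest signal of the IDR-thresholded list was 227.2, above the pooled signals of CCT2 (151.8) and CCT4 (130.7). Their absence is thus not a separate result from their low pooled signals. This split depends on the cut of that list. CCT1 was among the strongest 8522 peaks in replicates 2 and 3, and CCT2 in replicates 1 and 3. The exact two-sided sign-flip permutation test given below, on peak strength over 3 replicates, could reach no p under 0.25. It therefore cannot decide whether the genes differ. The pooled list and those of replicates 2 and 3 each held 30000 peaks, so they reach down to weak signals. In the list called on the pooled replicates, 8 of 8 had a summit within 500 bp, against 52.2% of all protein-coding genes. With the whole gene and 2000 bp to either side counted, the numbers were again 6 of 8 in the IDR-thresholded list, against 50.7%, and 8 of 8 in the pooled list, against 68.1%. Inside the genes themselves there was no IDR-thresholded summit at any of the 8, against 16.3% of all protein-coding genes. For only 8 genes that is not far from the share of all genes. Gene length was not matched (2147 to 4671 bp for the CCT genes), so this shows no trait of the CCT genes.

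**Figure D1:**
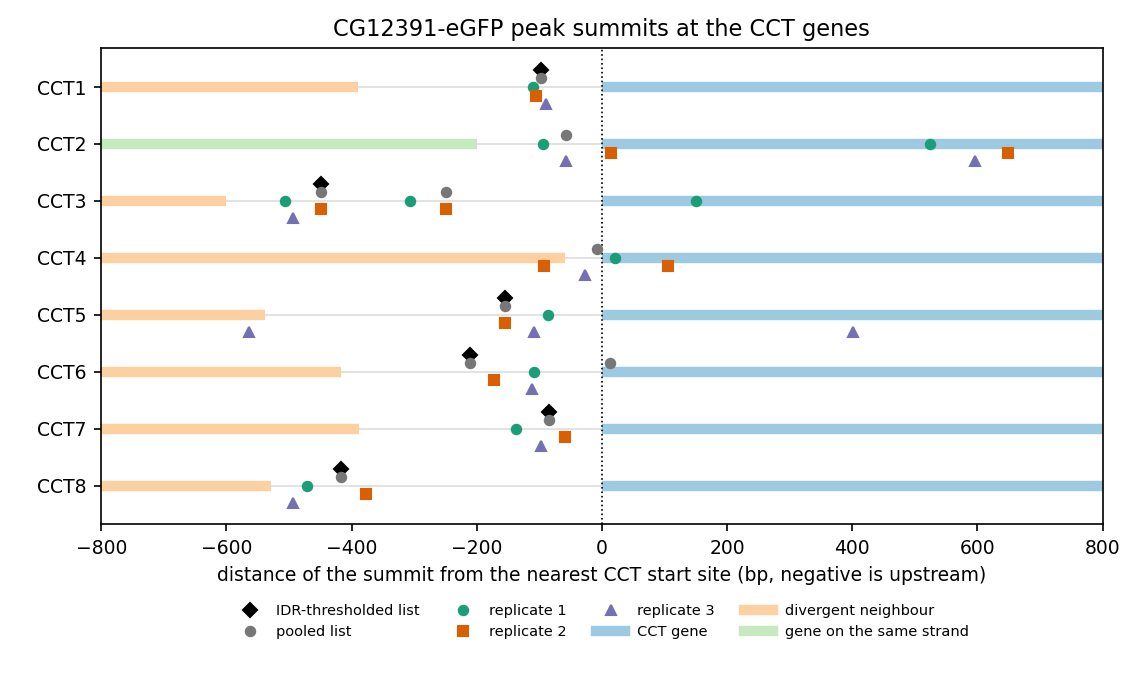
Distance of each peak summit from the nearest TSS of the CCT gene (bp, negative is upstream), with 1 row per gene and 1 marker per summit within 800 bp in each of the 5 peak lists. Blue bars are the CCT genes, orange bars the divergent neighbours and the green bar CG6999 on the same strand as CCT2. Where a diamond (IDR-thresholded list) is drawn, it lies between the CCT gene and its divergent neighbour.

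All 3 replicate lists placed a summit within 500 bp of the TSS of 8 of 8 genes. By the same rule replicate 1 had 53.9% of all protein-coding genes, replicate 2 had 51.4% and replicate 3 had 55.0%, and 44.4% had one in all 3 replicates. At equal list length, using the strongest 8522 peaks of each replicate (the length of the IDR-thresholded list), CCT genes with a summit in range numbered 5 in replicate 1 (background 35.3%), 6 in replicate 2 (background 32.8%) and 7 in replicate 3 (background 35.3%). CCT4 was outside these top peaks in every replicate. CCT2 was among them in replicates 1 and 3 and far outside in replicate 2, and CCT1 was outside in replicate 1. In replicate 1 the strongest peak upstream of CCT3 had its summit 507 bp from the TSS, just beyond the limit, at rank 2300, so that CCT3 was counted as outside there by a margin of a few bases.

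The sequence under the summits shows how promoters with and without an IDR-thresholded summit looked. Each line gives the bases from 50 bp before to 50 bp after the pooled summit, 5′ to 3′ along the strand of the CCT gene, on dm6. Capitals mark 3 words on either strand. TATAAA is the core of the TATA box. The copies marked here began 79 and 71 bp upstream of the TSS at CCT1 and 498 bp upstream at CCT3. Whether they act as a TATA box was not tested. TATCGATA is the site of DREF, and CGATA the short site of BEAF-32. Both are fly proteins known to bind near promoters of housekeeping genes. The CCT4 window was trimmed to bases between the start sites of the gene pair.
CCT1 (chr3R:22491487-22491587, minus strand): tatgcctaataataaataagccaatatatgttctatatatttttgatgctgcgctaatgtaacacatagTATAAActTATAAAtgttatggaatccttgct
CCT3 (chr3R:16647106-16647206, plus strand): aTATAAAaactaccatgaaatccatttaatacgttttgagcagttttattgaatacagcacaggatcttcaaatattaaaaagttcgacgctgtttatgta
CCT6 (chrX:15746388-15746488, plus strand): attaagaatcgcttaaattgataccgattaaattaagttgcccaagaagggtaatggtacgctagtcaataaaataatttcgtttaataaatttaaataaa
CCT7 (chr3R:8801429-8801529, plus strand): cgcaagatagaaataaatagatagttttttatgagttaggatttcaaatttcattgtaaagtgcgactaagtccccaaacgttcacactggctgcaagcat
CCT2 (chrX:9089405-9089505, plus strand): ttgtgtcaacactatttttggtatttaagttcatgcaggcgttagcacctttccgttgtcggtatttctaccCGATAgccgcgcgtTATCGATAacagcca
CCT4 (chr2L:12692935-12692991, minus strand): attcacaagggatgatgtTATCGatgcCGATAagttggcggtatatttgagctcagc
The windows of CCT1, CCT3 and CCT6, from genes with an IDR-thresholded summit, are mostly A and T (73.3%, 71.3% and 74.3%). That of CCT7, also from such a gene, is so to a lesser degree (64.4%). The windows of CCT2 and CCT4, which had pooled summits only, are richer in G and C, and both hold CGATA within 50 bp upstream of the TSS. Such a copy does not set them apart, as 7 of 8 CCT genes had one, against 19.5% of all promoters. At CCT1, CCT3 and CCT6 the printed windows, centred on the summits, did not reach it.

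CCT1, CCT5 and CCT7 had their IDR-thresholded summit nearer to their own TSS than to that of the neighbour. CCT1 encodes the alpha subunit (FBgn0003676, 3R, 22489105 to 22491439, minus strand), and its summit lay 98 bp upstream with a signal of 320.3 and rank 6113 of 8522. Signal is the authors' own peak strength and is set side by side only within a list. Its signal was 45.2 in replicate 1 (rank 10362), 154.3 in replicate 2 (rank 7266) and 86.1 in replicate 3 (rank 5735). The 3 replicate summits lay from 90 to 110 bp upstream, so they lay close together while the ranks varied widely. The gene across the gap is tHMG1, which encodes an HMG-box protein and starts 390 bp away on the other strand.

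CCT5, the epsilon subunit gene (FBgn0010621, 2R, 12174802 to 12177516, plus strand), has annotated start sites 294 bp apart. Its IDR-thresholded summit lay 155 bp upstream of the first of them, with a signal of 550.8 and rank 3270. The signal was 121.6 in replicate 1 (rank 2785), 355.0 in replicate 2 (rank 2870) and 69.6 in replicate 3 (rank 7260). Replicate 3 was the low one, and there a peak 1469 bp upstream of CCT5, inside the neighbouring gene Oda, was stronger (signal 125.1, rank 3613). Oda encodes the antizyme of ornithine decarboxylase and starts 538 bp from CCT5 on the other strand.

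CCT7, the eta subunit gene (FBgn0037632, 3R, 8801564 to 8806234, plus strand), had its summit 85 bp upstream with a signal of 378.3 and rank 5122. The signal was 106.1 in replicate 1 (rank 3454), 191.7 in replicate 2 (rank 5897) and 82.8 in replicate 3 (rank 6044). All 3 replicates kept this peak among their top 8522. The neighbours Pif1A and Pif1B share 1 start site, 388 bp away on the other strand.

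CCT3, CCT6 and CCT8 had their IDR-thresholded summit nearer to the neighbour's TSS than to their own, CCT6 by only a few bases. CCT8, the theta subunit gene (FBgn0284436, 2R, 8904844 to 8906990, minus strand), carried the highest signal of the 8 in the pooled list, 851.7, at rank 1765. The summit was 417 bp from the TSS of CCT8 and 111 bp from that of CG30349, and the gap between the start sites was 528 bp. The signal was 116.1 in replicate 1 (rank 3026), 617.8 in replicate 2 (rank 1275) and 134.1 in replicate 3 (rank 3302), so CCT8 ranked high in every replicate. Each list held exactly 1 summit in the gene or within 2000 bp of it.

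CCT3, the gamma subunit gene (FBgn0015019, 3R, 16647605 to 16649978, plus strand), had a summit of signal 763 and rank 2073, 449 bp from its TSS and 152 bp from that of CG10324. The start sites were 601 bp apart, the widest gap of the 7 pairs. A second pooled summit lay 249 bp from the CCT3 TSS, at a signal of 225.0 and rank 8590, just below the lowest signal of the IDR-thresholded list, 227.2. In replicate 2 both summits were found again at the same distances, with signals of 461.5 and 228.5. In replicate 3 the strongest summit lay 493 bp away (signal 169.0, rank 2397). In replicate 1 it lay 507 bp away (signal 137.3).

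CCT6, the zeta subunit gene (FBgn0027329, X, 15746648 to 15748971, plus strand), had its summit almost midway in the gap, 210 bp from its own TSS and 207 bp from that of CG8944, with a signal of 530.7 and rank 3430. The signal was 56.5 in replicate 1 (rank 7945), 366.4 in replicate 2 (rank 2751) and 96.1 in replicate 3 (rank 5042). The pooled summit and its printed window lie in an annotated fragment of the transposable element jockey2, 152 bp long. The summits of replicate 1 and replicate 3 lay outside that fragment, 109 and 112 bp from the TSS, and that of replicate 2 inside it, 173 bp away. All 3 replicate summits were thus nearer to the TSS of CCT6 than to that of CG8944. No source used here says how reads from repeated copies were placed, and their part in this peak was not tested. A weaker pooled summit lay 13 bp past the TSS in the 5′ UTR (signal 112.1, rank 15021).

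CCT2 and CCT4 had the lowest pooled signals of the 8 and no IDR-thresholded summit. CCT2, the beta subunit gene (FBgn0030086, X, 9089513 to 9092826, plus strand), had a pooled signal of 151.8 at rank 11918, with the summit 58 bp upstream. Its −log10 q-value was 2.71, where the list's ceiling is 4.30. The signal was 65.1 in replicate 1 (rank 6717), 49.7 in replicate 2 (rank 18522) and 61.1 in replicate 3 (rank 8291), so replicate 2 stood apart from the other replicates. In replicate 1 the CCT2 signal was above those of CCT1, CCT3 and CCT6 within the same distance of the TSS. CCT2 also carries mir-13b-2, a microRNA gene, within its bounds, and no IDR-thresholded or pooled summit lay in the body of CCT2. Each replicate list had a weak intronic summit there, 524, 649 and 596 bp past the TSS in replicates 1, 2 and 3, with signals of 36.2, 38.0 and 16.8.

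CCT4, the delta subunit gene (FBgn0032444, 2L, 12690336 to 12692934, minus strand), was the weakest in the pooled list, with a signal of 130.7 at rank 13343 and a −log10 q-value of 2.07. Its summit lay 7 bp upstream, inside the gap of 59 bp that separates it from CG6153 on the other strand. The signal was 33.4 in replicate 1 (rank 14811), 71.9 in replicate 2 (rank 13947) and 47.3 in replicate 3 (rank 10654). The strongest summit of replicate 1 lay 21 bp and that of replicate 2 lay 106 bp past the TSS, and that of replicate 3 lay 27 bp before it.

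To set replicates side by side, each gene's strongest summit within 500 bp of the TSS was given a percentile, the share of the other peaks on the arms in the same list that had a lower signal. CCT8 had the highest mean, 91.6 ± 3.67, and CCT4 the lowest, 56.2 ± 7.33 (SD, n = 3 for each gene). Between them lay CCT5 at 85.7 ± 8.53, CCT7 at 82.9 ± 4.84, CCT3 at 82.5 ± 17.6, CCT6 at 82.5 ± 8.69, CCT1 at 74.0 ± 7.87 and CCT2 at 62.7 ± 21.4. The range of CCT8, from 89.0 to 95.8, did not overlap that of CCT4, from 50.6 to 64.5. These genes were picked as the extremes of the 8 means, so little rests on that gap. The range of CCT8 also did not overlap those of CCT1, CCT2 and CCT7. That of CCT4 also did not overlap those of CCT1, CCT5, CCT6 and CCT7. Neighbours in this order overlapped, and the genes from CCT5 to CCT6 differed by less than the spread between replicates. The order turned with the distance and the replicates used. With summits up to 1000 bp from the TSS, which takes in the replicate 1 peak 507 bp from CCT3 and changes no other value, CCT3 had the highest mean, 92.6 ± 0.702, and CCT8 kept 91.6 ± 3.67. Without replicate 1, CCT3 averaged 92.7 and CCT8 92.4. Without replicate 2, CCT2 averaged 74.98 and CCT1 73.2, the reverse of their order over all 3 replicates.

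Each gene's percentile was also compared with the median of the other 7 genes in the same replicate. CCT8 was higher in 3 of 3 replicates, by 13.7 ± 3.94 points, and CCT4 was lower in 3 of 3, with a difference of -26.8 ± 10.3 points. Within 500 bp no other gene was on the same side of that median in all 3 replicates. Within 1000 bp, CCT3 was also higher in 3 of 3, by 13.3 ± 1.31 points, and CCT2 lower in 3 of 3, with a difference of -23.9 ± 24.6 points, and that setting was chosen after the values were seen. For the values within 500 bp, by an exact two-sided sign-flip permutation test over 3 replicates, CCT8 and CCT4 each had p = 0.25, the smallest p this design allows, and an adjusted p of 0.8 over the 8 genes. No gene could therefore have passed a threshold of 0.05.

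**Figure D2:**
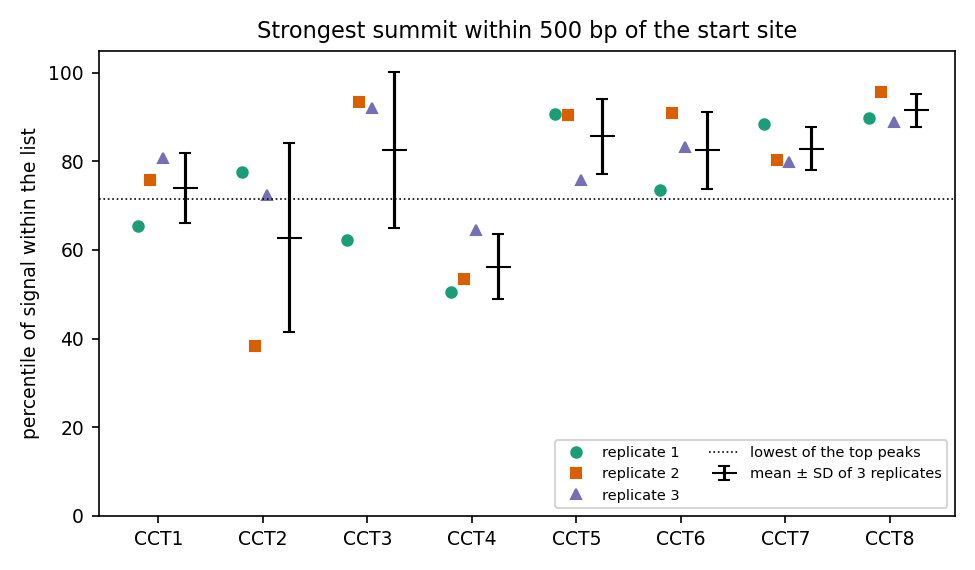
Percentile of the strongest summit within 500 bp of the TSS, for each CCT gene in each of the 3 replicate lists, with the mean and SD beside the points. The dotted line is the lowest of the 8522 top peaks, at a percentile of 71.6. All points of CCT4 lie below it and all points of CCT5, CCT6, CCT7 and CCT8 lie above it.

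The highest signal among the CCT genes was 6.52 times the lowest in the pooled list, CCT8 over CCT4. The ratio of highest to lowest was 3.64 in replicate 1 (CCT5 over CCT4), 12.4 in replicate 2 (CCT8 over CCT2) and 3.57 in replicate 3 (CCT3 over CCT4). In replicate 1 the strong peak 507 bp from CCT3 is left out of this ratio, since it was beyond 500 bp. Over the 6 CCT genes with an IDR-thresholded summit the pooled ratio was 2.66, which leaves out CCT2 and CCT4, the lowest in the pooled list. A wide spread is not particular to CCT. Among prefoldin genes with a pooled summit within 500 bp, signals ran from 146.4 (Pfdn1) to 2316 (mgr).

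The bound CCT genes were of middling strength. Their median signal was 540.8 (6 genes), against 561.5 for the 4801 protein-coding genes with an IDR-thresholded summit within 500 bp of a TSS. CCT8 exceeded 68.0% of those genes and CCT3 63.8%. CCT5 exceeded 48.8%, CCT6 46.8%, CCT7 28.0% and CCT1 18.3%. The members thus covered a broad part of the range of bound genes, from CCT1 in its lower part to CCT8 above its middle.

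**Figure D3:**
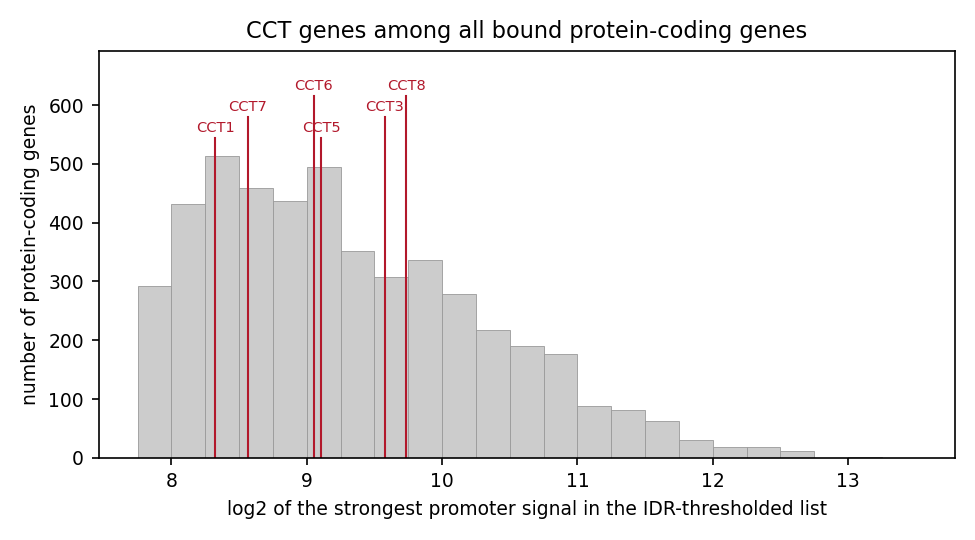
Number of protein-coding genes by the log2 of their strongest IDR-thresholded signal within 500 bp of a TSS (grey bars, 4801 genes), with a red line at each of the 6 bound CCT genes. CCT1 and CCT7 lie in the lower part of the distribution, and CCT3 and CCT8 above its median.

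Most CCT genes share their promoter region with a gene on the other strand. A divergent neighbour, a protein-coding gene whose TSS lies upstream within 1000 bp on the other strand, was present at 7 of 8 CCT genes, against 36.2% of all protein-coding genes. CCT2 was the exception. The gene upstream of it, CG6999, runs along the same strand and ends 198 bp before it. Of the 7 CCT genes with a divergent neighbour 6 had an IDR-thresholded summit within 500 bp, against 59.7% of all protein-coding genes with such a neighbour. The single CCT gene without one, CCT2, had none, against 20.1% of all protein-coding genes without a divergent neighbour.

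The summits lay in the gaps between the paired start sites. In the IDR-thresholded list 6 of 6 summits were between the start sites, and in the pooled list 7 of 7. Over the 3 replicates 18 of 21 strongest summits were, and the other 3 were those of CCT3 in replicate 1 and CCT4 in replicates 1 and 2. The share over all divergent pairs is not given, so these counts do not show a trait of the CCT genes. At CCT3, CCT5 and CCT8 the gaps exceed 500 bp. There, any summit upstream of the gene and within 500 bp of its TSS lies in the gap by the rule. A summit in such a gap is in range of both genes, so it cannot be given to the CCT gene alone. Where each summit went only to its nearest coding TSS, CCT1, CCT5 and CCT7 kept their IDR-thresholded summit, while those of CCT3, CCT6 and CCT8 went to CG10324, CG8944 and CG30349. For CCT6 this rested on 207 against 210 bp, and in all 3 replicates the summit was nearest to CCT6 itself.

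The 6 CCT genes with an IDR-thresholded summit had gaps from 388 to 601 bp, and CCT4 the short gap of 59 bp. Bins of gap length were set after these values were seen. Of all protein-coding genes with a gap over 300 and up to 700 bp, 64.7% had an IDR-thresholded summit within 500 bp, and of those with a gap up to 100 bp 53.9%. The 6 CCT genes in the wider bin were all among those with a summit, and CCT4, in the narrower, was not.

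Further peaks lay around some CCT genes. In all, 9 IDR-thresholded and 23 pooled summits lay in the genes or within 2000 bp of them, and the replicate lists held 27, 25 and 23. CCT5 had 4 of the 9 IDR-thresholded summits. Beyond its 3′ end lay summits of signal 615.3 and 248.5, the stronger 104 bp from the TSS of EndoG, which encodes a mitochondrial nuclease and overlaps the end of CCT5. The remaining one, of signal 342.4, was 815 bp from the TSS of Oda. CCT7 had 9 pooled summits, of which all but the one 85 bp upstream were at or below a signal of 149.9.

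Beyond the 3′ end of CCT1 lies Pfdn5, a prefoldin subunit gene, 994 bp away. A summit 8 bp from the Pfdn5 TSS was found in replicate 1 (signal 66.1, rank 6604) and one 53 bp from it in replicate 3 (signal 75.2, rank 6679). Both were among the strongest 8522 peaks of their replicate. Replicate 2 and the pooled list had no summit within range there.

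The bases at the summits held more A+T at the 6 CCT genes with an IDR-thresholded summit than at CCT2 and CCT4. In the same window of 50 bp to either side of the pooled summit, A+T was 73.3% at CCT1, 71.3% at CCT3, 74.3% at CCT5, 74.3% at CCT6, 64.4% at CCT7 and 75.2% at CCT8. It was 55.4% at CCT2 and 53.5% at CCT4. The windows of all 8522 IDR-thresholded summits had a median of 70.3%, with 10% of them below 55.4%. CCT4 was the only member whose window held less A+T than its flanks 500 bp away, 53.5% against 68.3%. At the other 7 genes the window exceeded the flanks by 9.41 points (CCT2) to 23.8 points (CCT1).

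At the replicates' own summits A+T was 56.4% ± 2.62 at CCT2 and 56.1% ± 3.48 at CCT4, and between 68.0% and 78.2% in the mean at the other 6 (SD, n = 3). The replicates of CCT3 and CCT8 were spread, with SDs of 11.3 and 11.8 points, and the summits that gave them lay at different places in the gap or, for CCT3 in replicate 1, past the TSS. The lowest single values of CCT3 (55.4%) and CCT8 (58.4%) reached the range of CCT2 and CCT4. Over all protein-coding promoters, the 4000 pooled promoter summits in the IDR-thresholded list had a median A+T of 68.3% and the 4625 below it 59.4%, the same order as among the CCT genes.

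**Figure D4:**
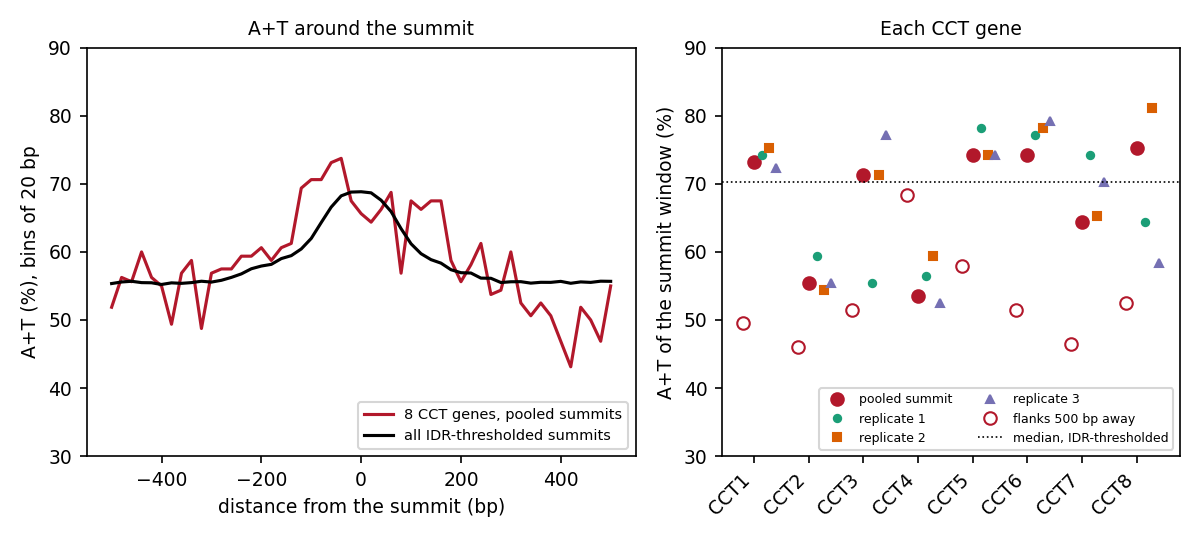
Left, A+T content in bins of 20 bp by distance from the summit, along the genome's plus strand, for the pooled summits of the 8 CCT genes (red) and all 8522 IDR-thresholded summits (black). Right, A+T of that window at each gene's pooled summit, at each replicate's strongest summit and in the flanks, where CCT2 and CCT4 lie below the median of 70.3% in every list drawn.

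Known promoter words were searched on both strands. In the summit windows, TATAAA was found at CCT1, CCT3 and CCT5, or 3 of 8, against 26.2% of all IDR-thresholded windows. These copies began 79 and 71 bp upstream of the TSS at CCT1, 498 bp at CCT3 and 180 bp at CCT5. TATCGATA was found at CCT2, against 2.41% of the windows, and CGATA, which is contained in TATCGATA, at CCT2 and CCT4, against 16.4%. The words GGTCACACT, CATCNCTA, GAGAG, CACACACA and AAAAAAAA were in none of the 8 summit windows, against 1.17%, 1.56%, 8.03%, 0.833% and 8.30% of all such windows.

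In the promoter window from 250 bp before the TSS to its first 50 bp, CGATA was found at 8 of 8 CCT genes, against 47.4% of all protein-coding promoters. In 7 of 8 a copy began within 50 bp upstream of the TSS, against 19.5% of all promoters, a distance chosen after the matches were seen. CCT7 was the exception, with copies beginning 236 and 224 bp upstream. TATCGATA was present in the promoter windows of CCT2, at 140 and 22 bp upstream, and CCT5, at 35 bp upstream, against 9.36% of all promoters. GGTCACACT, the site of M1BP, began 3 bp past the TSS of CCT6, against 6.05% of all promoters, and CATCNCTA began 23 bp upstream of CCT8, against 6.42%. TATAAA was present in the promoter windows of CCT1, CCT3 and CCT5, against 45.8% of all promoters, and GAGAG in those of CCT1, CCT3 and CCT4, against 29.7%. The CGATA copies of CCT1, CCT3, CCT6 and CCT7 were outside the printed windows, which are centred on the summits. A match is a word in the sequence and does not show that the named protein was bound.

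Other genes of the folding pathway were bound in part, where bound means an IDR-thresholded summit within 500 bp of a TSS. Of the 6 prefoldin genes, whose products deliver clients to CCT, 4 were bound, against the background of 34.4%. The strongest were mgr (signal 2316, rank 252), which encodes the third subunit, Pfdn2 (1271, rank 907) and Pfdn6 (875). Pfdn1 and Pfdn5 had none. The signals of mgr, Pfdn2 and Pfdn6 were all above that of CCT8.

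Of 7 genes for cofactors of CCT and of tubulin folding, 2 were bound (28.6%), against the background of 34.4%. These were Tbcd (signal 1526) and viaf (839), which encodes a phosducin-like protein. Among the 5 genes of group I chaperonins of mitochondria, Hsp60A (742) and CG11267, the gene of the cofactor Hsp10 (734), were bound (40%). Hsp60B, Hsp60C and Hsp60D were not. Of 16 actin and tubulin genes, the clients of CCT, 7 were bound (43.8%), with gammaTub23C (1753), Act87E (783) and Act5C (758) the strongest. The shares of the cofactor, group I and client lists were thus near that of all protein-coding genes. Proteasome subunit genes, taken as another many-subunit complex, were bound in 25 of 48 cases, led by Rpn3, Rpn11 and Rpn5. Without the 16 genes whose symbols carry T or R after the subunit number (such as Prosalpha4T1 and Rpn12R), paralogs of other subunits left out after the list was seen, the count was 25 of 32, or 78.1%. All 16 were unbound, so leaving them out could only raise the share. No other list was trimmed in this way, so the 78.1% is not on a par with the other shares. The lists also differed in divergent neighbours. These were present at 4 of 6 prefoldin, 2 of 7 cofactor, 1 of 5 group I and 5 of 16 client genes. Among proteasome genes they were present at 26 of 48, or 22 of 32 without the paralogs. The background was 59.7% for genes with such a neighbour and 20.1% for those without. The shares of the lists were not adjusted for this, so their distance from 34.4% does not show a trait of a list. No test between lists was made.

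**Figure D5:**
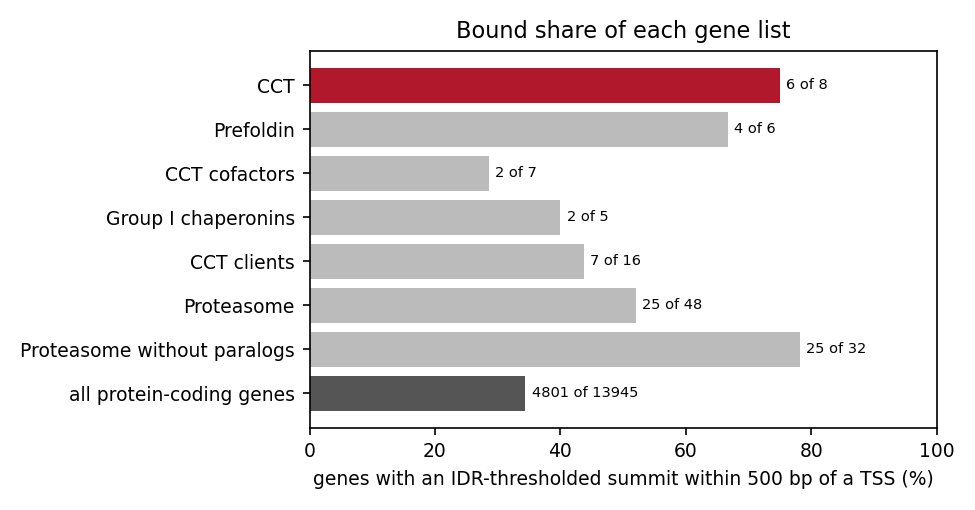
Share of genes with an IDR-thresholded summit within 500 bp of a TSS (x axis, percent), for the CCT genes, other gene lists and all protein-coding genes, with the counts beside the bars. The CCT genes (6 of 8) and the proteasome genes without paralogs (25 of 32) have the longest bars. The latter list leaves out 16 unbound genes, and no other list was trimmed in this way.

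The genes nearest to the mean of the bound CCT genes were sought by the promoter percentile in each of the 3 replicates. The 6 bound CCT genes averaged 78.4, 87.8 and 83.5 in replicates 1, 2 and 3. Of 6174 protein-coding genes with a summit in range in all 3 replicates, leaving out the CCT genes and their divergent neighbours, the nearest were CG1582 (77.7, 88.0 and 83.4), CG15093 (77.0, 87.7 and 83.9) and CG32795 (79.9, 87.5 and 83.9). Their Euclidean distances from the CCT mean were 0.767, 1.44 and 1.64 points. The CCT genes themselves were spread around that mean, for example CCT1 (65.4, 75.8 and 80.9) and CCT8 (89.9, 95.8 and 89.0). Among 6174 candidates some gene will lie close to any such mean, so the small distances do not show a link with CCT.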

How the data were processed

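Peak lists of CG12391-eGFP ChIP-seq from 3 biological replicates of 0 to 24 h embryos were analysed on dm6. Per the labels, chromatin was sonicated to 200 to 800 bp. Per the deposited file lists, peaks were called by the authors on each replicate and on the pooled alignments against 1 shared control, and the IDR-thresholded list was derived from those lists. No source used here names the aligner, caller or IDR setting. Signal is the peak strength the authors deposited, with no stated normalization. The −log10 q-value was set by the authors, had 1 value throughout the IDR-thresholded list, and was quoted only. Summit offsets gave positions. Read depth is unknown, so no interval was computed.

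Genes and start sites came from Ensembl release 115, and sequence from the RefSeq copy of the Release 6 assembly, whose coordinates are those of dm6. No peak ran past an arm's end. Ranks and percentiles use peaks on the arms (22 mitochondrial ones of replicate 1 were left out). Overlap with a replicate's 8522 top peaks needed at least 1 bp. All 8 members, their divergent neighbours, and up to 3 bound genes per list were named, with every unbound one where there were 3 or fewer. The members and lists were chosen with earlier results of these data known. Python 3.11.15 and numpy 2.4.6 were used, and the scripts were tested on simulated data. The alternatives were other TSS distances, margins, stronger peaks, nearest TSS and leaving out each replicate. Members were not replicates of a condition, and neighbouring genes share summits.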

Additional observations from a re-analysis of the deposited data

How the results depend on the processing

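The count of 6 CCT genes with an IDR-thresholded summit near a TSS became 2 within 100 bp (CCT1 and CCT7) and 3 with the single nearest coding TSS (CCT1, CCT5 and CCT7), and ranged from 5 to 6 when 1 replicate was left out, as CCT1 was lost without replicate 2 or replicate 3. It was 4 in the stronger 50% of peaks, 5 among peaks shared by all 3 replicates, and 5 to 7 in the top peaks of single replicates, a setting chosen after seeing the data. With a margin of 0 bp around the gene the count was 0, against 16.3% of all protein-coding genes, which is not far apart for only 8 genes. Within 100 bp, pooled summits lay at 5 of the CCT genes. The fewer summits in range follow from the narrower windows. The share of all protein-coding genes is not given for the other TSS distances or the nearest TSS. It is also not given for the stronger peaks or for those shared by 2 or 3 replicates. Those counts therefore cannot be set against the 34.4% found at 500 bp. The ratio of highest to lowest signal was 12.4 in the list of replicate 2, against 6.52 in the pooled list; the cause was not tested. The order of the genes' percentiles turned in these cases, among others. CCT3 averaged 92.7 without replicate 1 and 92.6 within 1000 bp of the TSS (chosen after seeing the data), against 82.5 reported, and it then passed CCT8. CCT2 averaged 74.98 without replicate 2, against 62.7 reported, and then passed CCT1. No paired analysis was possible because the series holds 1 group. Depth is unknown, so the absence of CCT2 and CCT4 from the IDR-thresholded list does not show that they were unbound.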
